A study of Mus musculus with 16 samples.

Results

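Ribosomal protein (RP) genes encode the proteins that, with ribosomal RNA, make up the large (Rpl) and small (Rps) subunits of the cytoplasmic ribosome. They are transcribed in every cell, lie scattered over the genome, and are needed in nearly equal amounts because each ribosome holds a single copy of almost every RP. Their mRNAs typically begin with a 5′ terminal oligopyrimidine tract, a run of C and T bases at the start of transcription through which nutrient signalling by mTORC1 controls their translation, and in mouse liver the translation of these mRNAs is known to follow feeding time. Many RP genes also carry small nucleolar RNA (snoRNA) genes in their introns. The contacts described here are those that RP gene promoters make in liver chromatin over a day.

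The members are the bait fragments, that is the captured promoter fragments, that hold the start of an autosomal protein-coding gene with an RP symbol. Such a symbol is Rpl or Rps with a number and at most a single further letter, or Rplp0, Rplp1, Rplp2 or Rpsa. Of 80 genes with such a symbol, 4 lie on the X chromosome (Rpl10, Rpl36a, Rpl39 and Rps4x) and were outside the rule. Of the 76 autosomal genes, 69 had their start on a bait, each on a bait of its own, and 7 did not (Rpl10l, Rpl12, Rpl17, Rpl19, Rpl35a, Rpl39l and Rps24). The 69 baits, 39 of the large and 30 of the small subunit, were among 18165 baits in all and lay on 18 chromosomes, 14 of them on chromosome 7. They took part in 1157 of the 247177 distinct interactions listed at any timepoint.

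Promoter Capture Hi-C, which enriches chromatin ligation products that contain a promoter, had been applied to whole liver of wild-type C57BL/6 male mice. From 8 weeks of age these were kept for 2 weeks in 12 hours of light and 12 hours of darkness, with food at all times. The 4 timepoints were ZT0 (lights on), ZT6, ZT12 (lights off) and ZT18, each with 3 pools of 2 livers, and 1 list of interactions was made per timepoint from the merged pools. Each list holds pairs of HindIII fragments with their CHiCAGO score, a weighted measure of how far the read count exceeds the expected background, and pairs with a score under 5 are not listed. With 1 list per timepoint there was no replicate error and no test between timepoints; the 95% intervals given (Wilson for shares, order statistics for medians) cover counting error only, and interactions of 1 bait are not independent. The read depth behind each pair is unknown, the lists held 146262 to 154775 pairs, and they hold no expression values with which the tissue label could be checked.

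The sequence around the start was compared between RP gene promoters and those of other genes. The starts below, placed on mm9 by exact match of RefSeq promoter sequences (RefSeq table of GRCm38.p6), are those of genes on which results below turn: Rpl13a and Rpl18, whose promoters contacted each other, Rpl28, which had the most interactions, Rps27 and Rpl23, whose number of interactions differed over the day, and Rpl3l, a muscle paralog of Rpl3. Each runs from 60 bases before the start through the first 40 bases of the transcript, 5′ to 3′ on the strand of the gene, and capitals mark a run of at least 8 C or T that begins within 20 bases of the start.
Rpl13a, chr7:52384076-52384175, minus strand: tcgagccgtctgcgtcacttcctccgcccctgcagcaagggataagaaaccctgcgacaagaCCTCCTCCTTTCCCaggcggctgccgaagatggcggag
Rpl18, chr7:52973381-52973480, plus strand: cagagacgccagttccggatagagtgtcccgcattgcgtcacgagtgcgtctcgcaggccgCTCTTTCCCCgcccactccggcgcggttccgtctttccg
Rpl28, chr7:4744507-4744606, plus strand: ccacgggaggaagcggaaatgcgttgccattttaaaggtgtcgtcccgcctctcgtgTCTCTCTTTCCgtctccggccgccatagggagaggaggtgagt
Rps27, chr3:90017531-90017630, minus strand: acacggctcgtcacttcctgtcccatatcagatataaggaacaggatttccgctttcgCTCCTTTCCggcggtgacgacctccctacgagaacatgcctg
Rpl23, chr11:97643714-97643813, minus strand: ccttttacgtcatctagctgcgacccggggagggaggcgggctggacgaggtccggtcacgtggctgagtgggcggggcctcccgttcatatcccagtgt
Rpl3l, chr17:24864711-24864810, plus strand: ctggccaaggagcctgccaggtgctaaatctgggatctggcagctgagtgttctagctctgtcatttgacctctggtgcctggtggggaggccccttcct

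Rpl13a, Rpl18, Rpl28 and Rps27 carried such a run, of 14, 10, 11 and 9 bases, and Rpl23 and Rpl3l did not at these starts. Among the 49 members with a RefSeq start in the table, 26 (53.1%, interval 39.4 to 66.3%) had the run at 1 or more of their starts, against 19.9% of 11097 protein-coding genes with a start on a bait and 14 of 61 genes of mitochondrial RPs (23.0%), which have their own ribosome. At the gene starts of the GENCODE annotation, where the outermost transcript sets the start, 23 of 69 RP genes had it (33.3%), against 16.9% of 16455 coding starts; the same run on the opposite strand stood at 10 of the 69 (14.5%) and at 18.5% of all starts.

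Over the 300 bases from 250 before to 50 after the GENCODE start, searched on both strands, the ETS core CCGGAAG was present at 22 RP starts (31.9%, interval 22.1 to 43.6%) against 12.5% of all coding starts, and at 25 of 70 starts of mitochondrial RP genes (35.7%). ATGGCGGC, a YY1-like motif, was present at 6 RP starts (8.70%, 4.05 to 17.7%) against 3.17% of all, and at 12 of 70 starts of mitochondrial RP genes (17.1%). The clock activators' E-box CACGTG was found at 8 (11.6%, 5.99 to 21.2%) against 8.52%, the GC box GGGCGG at 30 (43.5%) against 49.4%, and TATAAA at 8 (11.6%) against 11.4%, so that for these 3 motifs the interval of the RP genes included the share of all starts. The median number of CG pairs was 20 in RP windows, 20.5 in mitochondrial RP windows, 20 in proteasome windows and 15 in all, while the median GC content was 56.0% and 57.3%.

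RP gene promoters had a median of 13 interactions over the 4 lists together (interval 7 to 16, n = 69 baits), with the middle 50% of baits between 5 and 23 and a range from 2 to 71. Large subunit genes had a median of 14 and small subunit genes a median of 11, with overlapping intervals (7 to 21 and 6 to 16). The medians were 14 for 69 baits of mitochondrial RP genes, 16 for 46 baits of proteasome genes and 16 for 54 baits of genes of translation and ribosome assembly, against 10 for all 14736 baits with a protein-coding start. Fewer than 10 interactions were listed for 30 of the 69 RP baits (43.5%) and for 49.5% of the baits with a protein-coding start, of which the middle 50% had 4 to 22, so the spread among RP genes was close to that among coding genes.

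**Figure D1:**
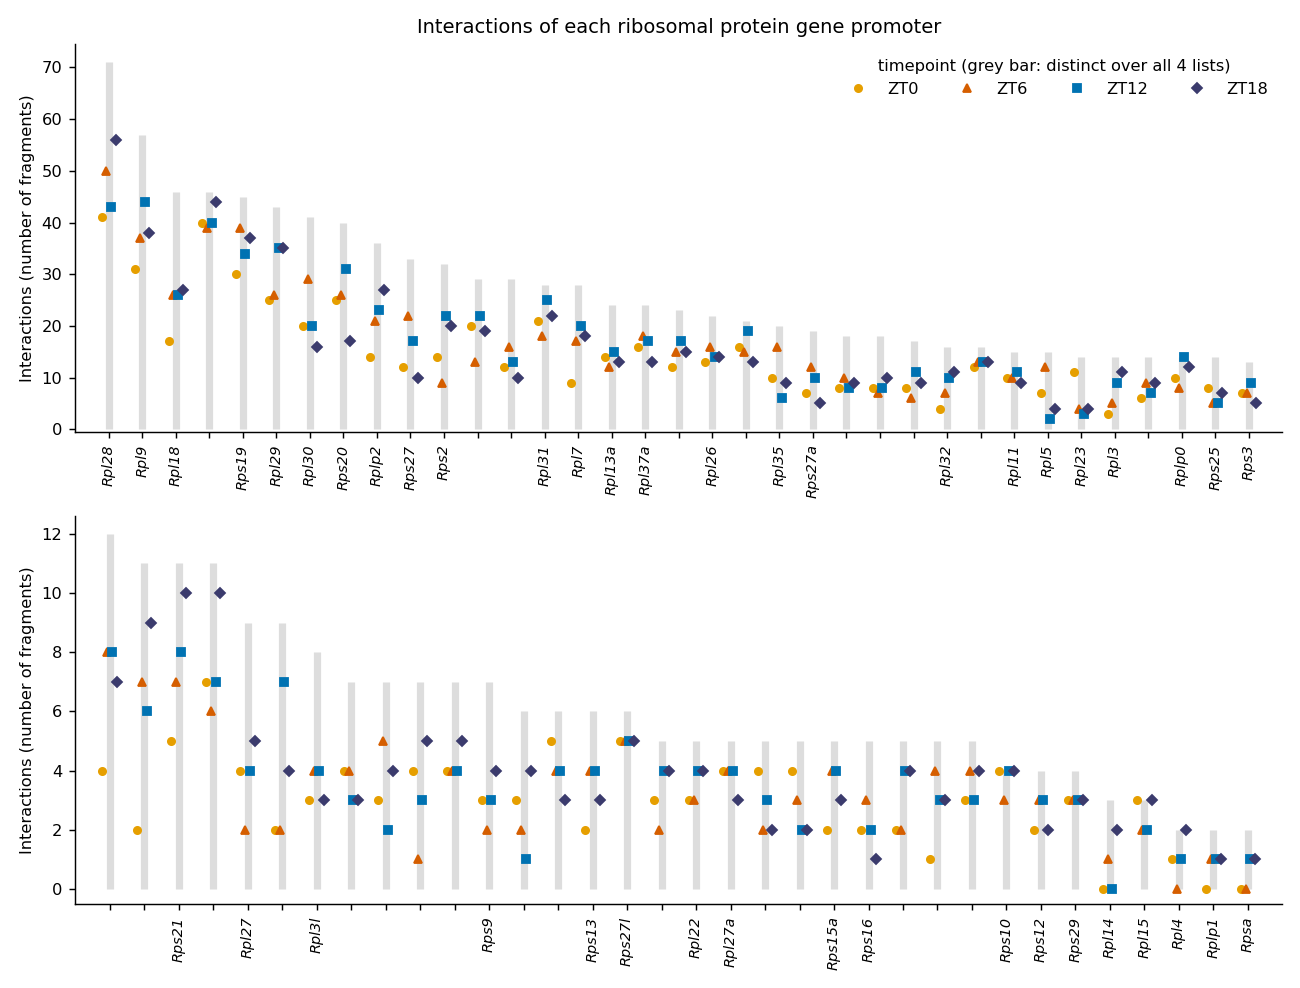
Interactions of each of the 69 RP gene promoters, ordered by their number over all 4 lists (grey bars), with the number in each list as points; the lower panel has its own scale. Names are given for the genes described in the text. Rpl28 stood at 41 to 56 in every list, while Rpl4, Rplp1 and Rpsa had 2 interactions in all.

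The 10 baits with the most interactions held 458 of the 1157. Rpl28 had 41, 50, 43 and 56 interactions in the lists of the successive timepoints (the order of every such series of 4 values below), and its bait also held the start of 2210411K11Rik. Among its interactions with the highest scores were several fragments within Ptprh, 233 kb away for the first of them, with scores of 20, 18.03, 17.7 and 31.56, and the promoter of Syt5. Rpl9, on a bait shared with the lipoic acid synthetase gene Lias, had 31, 37, 44 and 38. Rpl18 had 17, 26, 26 and 27. The ZT0 list held the fewest interactions of all 3.

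Rps19, a small subunit gene of chromosome 7 that is mutated in many cases of Diamond-Blackfan anaemia, had 30, 39, 34 and 37 interactions, 27 of 45 at all 4 timepoints.

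Further baits among the 10 had 33 to 43 interactions over the lists. Rpl29 had 25, 26, 35 and 35, of which 20 of 43 were present at every timepoint (46.5%), led by the promoter of Poc1a at 149 kb. Rpl30 had 20, 29, 20 and 16, and 4 of its 41 were present at every timepoint (9.76%). Rps20 had 25, 26, 31 and 17, Rplp2, an acidic protein of the ribosomal stalk, had 14, 21, 23 and 27 on a bait shared with the lipase gene Pnpla2, a gene on the study's circadian list. Rps27, on a bait shared with Rab13, had 12, 22, 17 and 10. Of the interactions of Rps27, 9.09% were present at every timepoint.

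At the other end of the range, 8 baits had fewer than 5 interactions. Rpl4, Rplp1 and Rpsa, a small subunit protein also known as the laminin receptor, had 2 each, Rpl14 and Rpl15 had 3, and Rps10, Rps12 and Rps29 had 4. Few interactions did not always mean weak ones. Rps10 contacted the promoter of Hmga1, 76.6 kb away, at every timepoint with scores of 14.57, 19.06, 15.12 and 12.17, and Rps29 contacted the fragment with the starts of Mgat2 and Rpl36al, 27.4 kb away, with 14.06, 13.34, 13.71 and 17.97. Rpl15 contacted the promoter of Nr1d2, which encodes the clock repressor REV-ERBβ, 34.5 kb away at every timepoint (5.85, 5.35, 6.01 and 7.9). The 3 interactions of Rpl14 and the 2 of Rpsa were each listed at a single timepoint.

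Rplp0, which anchors the ribosomal stalk, had 10, 8, 14 and 12 interactions, led by a fragment 59.0 kb away with scores of 15.65, 15.39, 13.42 and 14.77. Rplp1 was absent from the ZT0 list and had 1 interaction in each of the others. Rps27l, a paralog of Rps27, had 5 interactions in every list, among them the promoters of Aph1b and Aph1c, while Rpl3l had 3, 4, 4 and 3, none of its 8 distinct interactions being present at all 4 timepoints.

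The highest score of any RP promoter was that of Rpl9 with Klb, which encodes the β-Klotho coreceptor through which FGF21 and FGF15/19 act on metabolic tissues. The pair lies 47.4 kb apart and scored 41.61, 30.65, 20.24 and 27.25. Rpl37a reached 41.52 at ZT0, 23.57 in the ZT6 list, 27.21 in the ZT12 list and 23.4 at ZT18 with a fragment inside Igfbp5, an insulin-like growth factor binding protein gene, 148 kb away. It had a neighbouring Igfbp5 fragment at 29.67, 31.74, 30.03 and 26.42.

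Others among the 10 pairs with the highest scores were Rpl29 with Poc1a (33.99 at ZT18), Rpl28 with Ptprh (31.56 at ZT18), Rps3 with the neuraminidase gene Neu3 at 345 kb (28.68 at ZT0), Rpl26 with a bait in the purine synthesis gene Pfas (28.38 at ZT18) and Rps19 with a bait 65.5 kb away that holds no coding start (27.39 at ZT12). All 10 were present at every timepoint.

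Interactions of RP promoters reached another bait more often than those of all baits. Counted once for each end on an RP bait, 445 of 1159 interactions had a bait at their other end (38.4%, interval 35.6 to 41.2%), against 26.7% of the 285235 interactions of all baits counted the same way. Baits of coding genes with 3 to 10 coding starts within 100 kb, the middle range of the RP baits, stood at 28.6%. Their median was 5 such starts and that of the RP baits 6, and RP baits outside this range remain in the RP share. Mitochondrial RP genes stood at 36.2% (33.6 to 38.9%), proteasome genes at 38.9% (35.7 to 42.1%) and the translation and assembly list at 31.9% (29.2 to 34.7%), so that RP promoters stood above all baits, while their interval overlapped those of the mitochondrial RP and proteasome lists. The share was 34.9% of distinct pairs without the 14 baits of chromosome 7 and 38.3% with them. It stood above that of all baits in each list: 42.4 and 28.2% at ZT0, 38.0 and 26.5% in the ZT6 list, 42.6 and 28.3% in the ZT12 list, and 42.2 and 28.5% in the ZT18 list.

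**Figure D2:**
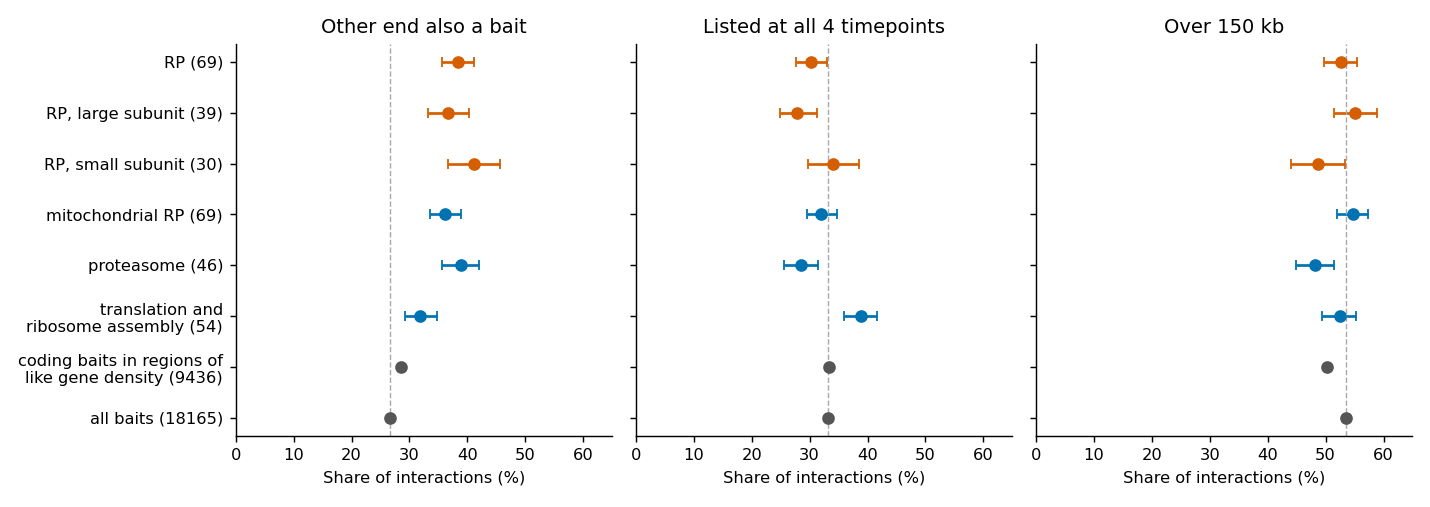
Share of the interactions of each set of baits (number of baits in brackets) whose other end was also a bait, that were listed at all 4 timepoints, and that spanned over 150 kb, with 95% Wilson intervals; dashed lines mark all baits. For a bait at the other end, RP promoters stood at 38.4% and all baits at 26.7%, while the proteasome list stood at 38.9%. Regions of like gene density are those with 3 to 10 coding starts within 100 kb, a range that not all RP baits share.

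RP baits lay in regions with a median of 6 coding gene starts within 100 kb (middle 50% 3 to 10), against 4 (3 to 7) for baits of coding genes. Where the other end was no bait, it overlapped an exon in 318 of 714 cases (44.5%, interval 40.9 to 48.2%) against 35.1% for all baits, and was intergenic in 178 (24.9%, 21.9 to 28.2%) against 36.1%. The part of gene density in the share of promoter-promoter interactions was not tested beyond the range of density given above.

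Interactions between RP promoters and other promoters recurred more often than the rest: 158 of 445 were present at all 4 timepoints (35.5%, 31.2 to 40.1%), against 193 of 714 with other fragments (27.0%, 23.9 to 30.4%). In all baits the corresponding shares were 37.0 and 31.6%. Promoter-promoter interactions also scored higher. The median highest score was 7.54 against 6.57 with other fragments for RP baits, and 7.45 against 6.87 for all baits. The part of the score in the recurrence was not tested. The median distance was 177 kb for promoter-promoter interactions of RP genes (158 to 195) and 149 kb for the others (137 to 161). Of the interactions within a chromosome, 52.6% spanned over 150 kb, against 53.5% for all baits, and none linked an RP promoter to another chromosome; only 0.0801% of all interactions did so, too few for the count of 0 to set RP promoters apart. Fragments upstream of the gene start were reached 618 times and those downstream 541 times.

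Pairs of RP promoters were counted among the members only. The contact of Rps29 with the fragment of Mgat2 and Rpl36al is not included, because Rpl36al falls outside the symbol rule. The lists held 2 such pairs, among them Rpl13a and Rpl18 on chromosome 7. These lie 587 kb apart and were paired at every timepoint, with scores of 6.63, 8.87, 6.71 and 7.16. RP baits were thus the other end in 4 of 445 promoter-promoter ends of RP baits (0.899%, 0.350 to 2.29%), against 0.585% of such ends of all baits. The Rpl18 bait also holds the start of Sphk2, a sphingosine kinase gene, and the Rpl13a bait that of Flt3l, so the pair of promoters that the Rpl13a and Rpl18 contact joins cannot be told apart from these.

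Rpl13a and Rpl18 shared partners as well. Of 1123 partner fragments of RP baits, 32 were listed with more than 1 RP bait, and 13 of these were partners of both Rpl13a and Rpl18. The fragment with the starts of Rras and Scaf1 was listed with both at every timepoint, with scores of 10.42, 8.34, 8.16 and 9.46 from Rpl13a and 10.25, 11.18, 10.5 and 5.32 from Rpl18. Other shared partners were listed less regularly: the promoter of the arginine methyltransferase gene Prmt1 was listed with Rpl13a at ZT0 alone (6.09) and with Rpl18 at ZT18 alone (6.1), and that of Prr12 with Rpl13a at every timepoint but with Rpl18 at ZT12 alone (8.19). Rpl13a contacted the promoter of Dbp, a clock output transcription factor whose gene lies beside Rpl18. The pair, at 574 kb, scored 9.44, 6.99, 13.23 and 6.5. Rpl18 contacted the promoter of Fgf21, the liver hormone gene, 103 kb away at every timepoint (11.12, 5.81, 9.6 and 7.57). Shared partners elsewhere were 6 of Rpl3l and Rps2, 2 of Rpl28 and Rps9, and the promoter of Arl6ip1, shared by Rps13 and Rps15a. The baits of Rps2 (chr17:24853793-24855175) and Rpl3l (chr17:24860018-24870555) lie close together. They also hold the starts of Rnf151 and Ndufb10, respectively.

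**Figure D3:**
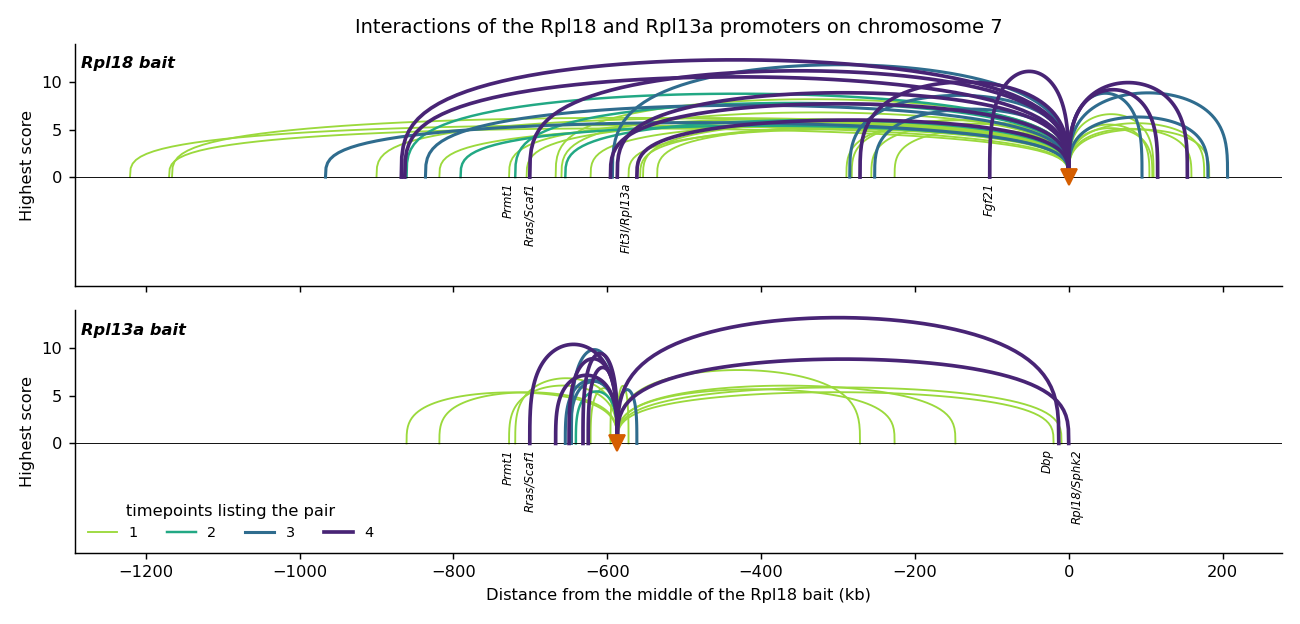
Interactions of the Rpl18 and Rpl13a baits (triangles) drawn as arcs from the bait to the other fragment, by distance from the Rpl18 bait; arc height is the highest score of the pair and colour the number of timepoints that list it. Rpl13a reached Dbp and Rpl18 at all 4 timepoints.

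Partners on the study's list of circadian genes were reached in 46 of 445 promoter-promoter ends of RP baits (10.3%, 7.84 to 13.5%), against 6.91% of those of all baits; where a bait holds several starts, the circadian gene may be the neighbour of the contacted one. Besides Dbp and Nr1d2 they included Npas2, a clock activator, contacted by Rpl31 at 174 kb at ZT0, ZT6 and ZT18 (8.21, 5.64 and 8.92). Rpl11 contacted the promoter of Lypla2 (21.8, 11.64, 16.56 and 14.04). Rpl27a contacted St5 at 101 kb (23.44, 18.34, 20.64 and 19.44) and Rps13 contacted Pik3c2a at 109 kb (17.53, 24.28, 23.52 and 19.75). These 3 pairs were present at every timepoint. Rpl22, the 1 RP gene on the circadian list, with its acrophase at ZT6, had 3, 3, 4 and 4 interactions. By the sample labels its number was thus no higher in the list of its acrophase than in the others. The study's own summary places the 3 later lists in another order, in which the numbers would be 3, 4, 4 and 3, with ZT6 among the highest. The promoter of Hes2 led the interactions of Rpl22 (12.1, 7.22, 10.8 and 11.96 by the labels).

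Genes of ribosome production and of the proteasome were seldom partners. RP promoters reached 2 baits of the translation and assembly list, Rrp9 from Rpl29 at 44.1 kb and Fbl, which encodes the snoRNA-guided methyltransferase fibrillarin, from Rps16 at 187 kb. They reached 3 proteasome baits (Psme3 from Rpl27, Psmb7 from Rpl35 and Psma7 from Rps21) and 2 mitochondrial RP baits (Mrps34 from Rps2 among them). These are 0.449, 0.674 and 0.449% of the promoter-promoter ends, against 0.464, 0.447 and 0.598% for all baits, inside the intervals of the RP values.

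Over the day, 350 of the 1157 RP interactions were present at all 4 timepoints (30.3%, 27.7 to 33.0%), against 32.5% of all interactions, which lies in that interval. A further 186 were present at 3 timepoints, 209 at 2 and 412 at 1 (35.6%). Counted once per bait end, the RP share at all 4 timepoints was 30.3% (27.7 to 33.0%), and that of all baits was 33.1%, just above this interval. Mitochondrial RP baits stood at 32.0% and proteasome baits at 28.5% in that count. The share followed the score closely. Of RP pairs whose highest score was under 7, 3.02% were present at all 4 timepoints, and 36.1% from 7 to 10, 84.0% from 10 to 15 and 97.9% from 15 upwards, beside 3.91, 40.3, 85.0 and 98.5% of all pairs. Of the 412 pairs listed once, 374 scored under 7 (90.8%), close to the minimum for being listed. When a fragment within 10 kb of the other end was accepted as the same contact, 65.6% of RP pairs recurred at all 4 timepoints (62.8 to 68.3%). Of all pairs 71.0% did, above that interval.

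Recurrence differed among the members. The 26 baits of genes with a snoRNA gene inside had 81 of 389 interactions at all 4 timepoints (20.8%, 17.1 to 25.1%) and the 43 without one 270 of 770 (35.1%, 31.8 to 38.5%). The median per bait was 15.5 and 36.6%. The highest scores differed too, with 13.4% of the pairs of the former reaching 10 and 25.1% of the latter. The 22 baits that hold another coding start stood at 22.7% (19.0 to 26.8%) and the 47 that hold none at 35.1% (31.7 to 38.7%). Rps19 is in the groups with the higher shares, and the part of the score in these differences was not tested.

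RP interactions at the listed minimum score were fewest in the ZT0 list. From that list to the one of ZT18 they numbered 621, 704, 742 and 721, which is 0.425% (0.393 to 0.459%), 0.455% (0.423 to 0.490%), 0.490% (0.456 to 0.526%) and 0.476% (0.443 to 0.512%) of the list. The intervals of ZT0 and ZT12 overlap slightly. With scores of at least 10 the shares were 0.471, 0.436, 0.472 and 0.499%, so that ZT6 and no longer ZT0 was lowest, with overlapping intervals. The median per bait was 5, 6, 7 and 7, and 3, 2, 1 and 0 RP baits had no interaction at these timepoints. Mitochondrial RP baits had medians of 7, 7, 8 and 8, and proteasome baits 7.5, 7.5, 9.5 and 10. Those of the translation and assembly list had 8.5, 8.5, 9.5 and 8, and all baits 5 in each list. Lower medians at ZT0 than at ZT12 were thus not particular to RP promoters. With the order of lists in the study's own summary, which places the 3 later lists otherwise, the ZT0 list is unchanged and the values of the other 3 trade places.

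Of the 39 RP baits with at least 10 interactions, the number relative to the list total was highest at ZT0 in 2 (5.13%, 1.42 to 16.9%), Rpl23 and Rps25. It was highest at ZT6 in 10, at ZT12 in 14 (35.9%, 22.7 to 51.6%) and at ZT18 in 13 (33.3%, 20.6 to 49.0%). Over all 8819 baits with at least 10 interactions, 26.4% had most at ZT0 and 26.2% at ZT18, while ZT6 had 24.0% and ZT12 had 23.4%. The interval of the RP share at ZT0 lay below the share of all baits, and the intervals at the other 3 timepoints included it. Mitochondrial RP and proteasome baits were not compared in this way. Without the minimum of 10, the numbers were 11, 13, 19 and 26 of 69, where 31.4, 21.0, 21.0 and 26.6% of all baits had most at the successive timepoints. In lists restricted to scores of at least 10, only 7 RP baits still had 10 interactions, and 2 of them had most at ZT0, beside 29.3% of all such baits, so the low share at ZT0 was not seen there.

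**Figure D4:**
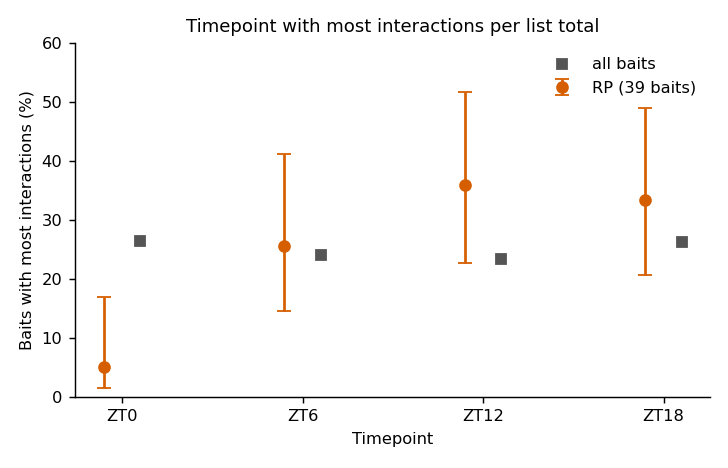
Share of baits whose number of interactions per list total was highest at each timepoint, for the 39 RP baits with at least 10 interactions (circles, 95% Wilson intervals) and all such baits (squares). At ZT0 the RP share was 5.13% and that of all baits 26.4%.

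Single promoters that differed at least 2-fold between opposite timepoints were few. Between ZT0 and ZT12, 1 of 32 RP baits with enough interactions was higher at ZT0 and 2 were higher at ZT12, where 2.62 and 2.89% of all baits were. Between ZT6 and ZT18, 3 of 36 were higher at ZT6 and 2 were higher at ZT18, where 2.71 and 3.33% of all baits were. These counts, of 1 to 3 baits each, have no test. In the order of the study's summary only Rpl23 and Rpl32 of the 8 promoters kept their direction and passed 2-fold. Rpl5 and Rps2 passed it in the opposite direction, and Rps27, Rps27a and Rpl7 did not pass. Rpl3 passed between ZT0 and ZT12 instead (3 and 11 interactions). Rpl35, outside the 8, passed in that order between ZT6 and ZT18 (6 and 16 interactions, 2.61-fold more at ZT18).

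**Figure D5:**
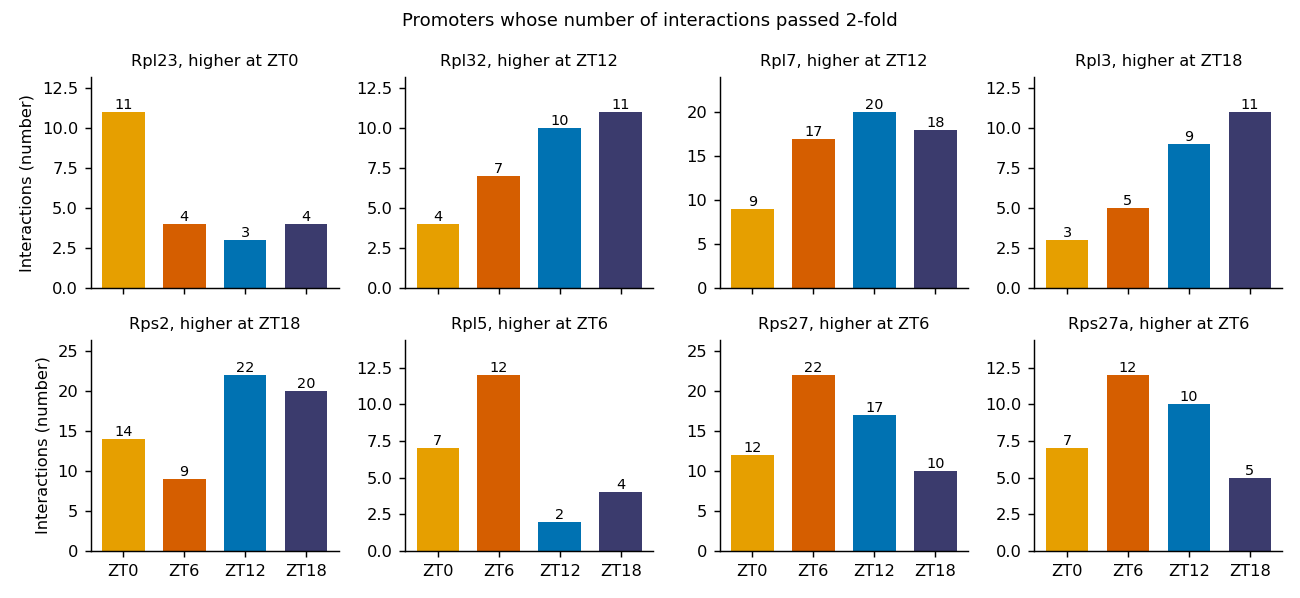
Number of interactions in each list of the 8 RP promoters that passed 2-fold, relative to the list totals, between ZT0 and ZT12 or between ZT6 and ZT18; each panel has its own scale from 0. Rpl23 had 11 interactions at ZT0 and 3 or 4 at the other timepoints.

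Rpl23 had 11, 4, 3 and 4 interactions, 3.80-fold more of the list at ZT0 than at ZT12. Its 2 interactions of every timepoint were the promoter of Fbxo47 at 95.3 kb (11.46, 9.18, 10.13 and 8.81) and the fragment at 109 kb (9.06, 7.16, 7.33 and 9.07). Another 8 were listed at ZT0 alone, and its 10 single-list interactions scored between 5.08 and 6.42. With neighbours within 10 kb accepted, 10 of its 14 interactions recurred at all 4 timepoints. The neighbouring baits of Lasp1 (12, 15, 14 and 14) and of Pcgf2 and Psmb3 (8, 8, 12 and 11) were not highest at ZT0.

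Rpl5, whose product joins the 5S ribosomal RNA and can bind MDM2, had 7, 12, 2 and 4 interactions, 2.93-fold more of the list at ZT6 than at ZT18; in the order of the study's summary it was 5.87-fold higher at ZT18. Most lay within Evi5, 102 to 147 kb away, and none was present at all 4 timepoints. A bait 6.91 kb further on, inside the Rpl5 gene at its snoRNA genes, had 12, 26, 8 and 10 interactions and was likewise highest at ZT6. The bait between them, also inside Rpl5, had 32, 36, 36 and 30 and did not share this difference. Rps27 had 12, 22, 17 and 10 interactions (2.15-fold in the same comparison), and the bait of Creb3l4 and Jtb, 23.1 kb away, had 21, 40, 27 and 20, also with most at ZT6. Rps27a, which encodes a ubiquitin fusion, had 7, 12, 10 and 5 (2.35-fold in the same comparison). In the order of the study's summary the folds of Rps27 and Rps27a were 1.27 and 1.17, with more at ZT18.

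Rpl3, which helps form the peptidyl transferase centre, had 3, 5, 9 and 11 interactions, 2.25-fold more of the list at ZT18 than at ZT6, and 1.84-fold more at ZT6 in the order of the study's summary. Its stable part lay in Cbx7, a Polycomb gene, at 137 kb (19.64, 20.57, 13.9 and 15.59) and 132 kb (6.59, 9.9, 10.06 and 8.63). The fragment with the starts of Atf4, the amino acid stress factor, and Rps19bp1 at 177 kb was present at ZT12 (5.53) and ZT18 (6.45). Rps2 had 14, 9, 22 and 20 (2.27-fold more at ZT18, and 2.50-fold more at ZT6 in that other order), but its RefSeq start lies on the next bait 2.11 kb away, which had 8, 5, 11 and 7, and the counted bait also holds Rnf151.

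Rpl32 had 4, 7, 10 and 11 interactions, 2.41-fold more of the list at ZT12 than at ZT0, and contacted the bait of Mkrn2 and 2510049J12Rik at every timepoint (9.41, 18.52, 14.79 and 19.73). Its neighbouring baits, that of Ift122 and Mbd4 (27, 33, 32 and 33) and that of BC060267 (7, 10, 6 and 8), differed less over the lists. Rpl7, on a bait shared with the retinol dehydrogenase gene Rdh10, had 9, 17, 20 and 18 (2.14-fold more at ZT12, and 1.93-fold in the order of the study's summary). In Rpl3, Rpl32 and Rpl7 the ZT0 list held the fewest interactions. Rpl32 and Rpl7 are named here because they passed 2-fold from ZT0 to ZT12, so their low ZT0 number follows from that choice. Of 31 baits of the translation and assembly list with enough interactions in each comparison, 2 passed 2-fold towards ZT12 and 2 towards ZT18 (6.45% each, beside 2.89 and 3.33% of all baits), and none towards ZT0 or ZT6: Eif4ebp1 (10, 13, 24 and 15) and Taf1c (6, 16, 16 and 18) were higher at ZT12 than at ZT0, and Eif3k (6, 3, 11 and 11) and Polr1c (13, 12, 16 and 25) were higher at ZT18 than at ZT6. These calls follow the sample labels and were not recomputed in the order of the study's summary. In that order Eif3k would have 11 at ZT6 and 3 at ZT18, the opposite direction, and Polr1c 16 and 12. Eif4ebp1 would have 10 at ZT0 and 15 at ZT12, and Taf1c 6 and 18.

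RP genes have many processed pseudogenes, so the contacted fragments were searched for RP coding sequence (at least 200 bp at 80% identity, by blastn). Fragments that overlap an RP gene of the symbol rule were counted as having no match. Of 1155 contacts with fragments that are not RP baits, 6 reached a matching fragment (0.519%, 0.238 to 1.13%), against 0.474% of the contacts of all baits. None of the 6 resembled the gene of the contacting bait. The match contacted by Rps29 was the fragment with the start of Rpl36al, a coding gene outside the rule, so not every match is a pseudogene.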

How the data were processed

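Promoter Capture Hi-C libraries from liver at 4 timepoints, with 3 pools of 2 livers each and pool A on an additional lane, made up the 16 samples. The authors mapped and filtered the reads with HiCUP against mouse build mm9 and, from the merged pools, let CHiCAGO call the interactions of each timepoint. Every deposited value is a CHiCAGO score of at least 5 for a pair of HindIII fragments; absence from a list is no measured low value, and more reads can bring more pairs past the minimum. No fit or test across timepoints was possible.

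Pairs were treated as unordered and the interactions of a bait counted from both ends. Shares of sets of baits were counted once per bait end, so that a promoter-promoter pair weighs alike in a small set and in all baits. Gene starts, exons and snoRNA genes came from GENCODE vM1 on mm9 (the end of the gene record that the strand gives); all 1189 fragments of RP interactions ended at HindIII sites of mm9. RefSeq starts were found for 49 members, on the member's own bait for 46 and off it for Rpl27, Rpl35 and Rps2. Numbers at opposite timepoints were divided by list totals and compared at 2-fold among baits with at least 10 interactions in the pair of lists, with 0 entered as 0.5. Genes named are the 10 baits with most interactions, those under 5, the paralogs, stalk genes and Rpsa, RP pairs, the 10 highest scores, baits past 2-fold and their partners; the circadian partners and the neighbouring baits named were chosen after their values were seen, as were the motif examples printed. Some genes that these rules name are not reported here. Members, comparison lists and alternatives were chosen with earlier results of these data known. Timepoints follow the sample labels. Python 3.11.15, pandas 2.3.3, numpy 2.4.6, scipy 1.17.1, bedtools 2.31.1, pysam 0.24.0 and blastn 2.17.0 were used, and the counting was tested on simulated lists.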

Additional observations from a re-analysis of the deposited data

How the results depend on the processing

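Of 152 values recomputed under 13 alternatives, 110 stayed inside their interval or within 1.5 times their count and 42 moved. The alternatives without the baits off their RefSeq start and without chromosome 7 were chosen after seeing the data. No paired analysis was possible because each list comes from merged livers, so no replicate could be blocked or left out.

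With scores of at least 10, where 50 RP baits and 244 pairs were left, the median per bait was 2.50, the share at all 4 timepoints 37.3%, the share over 150 kb 38.9%, the median distance 121 kb, the median highest score 13.0 and the shares of the lists 0.471, 0.436, 0.472 and 0.499%, ZT6 being lowest. In these stricter lists 1 pair of RP promoters was left, and no bait passed 2-fold in any direction (0 in each). Only 7 RP baits had at least 10 interactions over the 4 stricter lists, so most could not be tested for 2-fold. Of these 7, 4 had most interactions at ZT18, 2 at ZT0, 1 at ZT6 and 0 at ZT12. Over RP baits with no other coding start, the share at all 4 timepoints was 35.1%, the shares of the lists 0.282, 0.286, 0.311 and 0.300%, the RP pairs 0, the baits past 2-fold 1 at ZT12, 1 at ZT6 and 1 at ZT18, and most interactions fell at ZT0 in 1 and at ZT12 in 9. Accepting an end within 10 kb gave 65.6% at all 4 timepoints. In the order of the study's summary, the ZT6 share of the list was 0.490% and 1 bait was higher at ZT6 than at ZT18; Rpl5 and Rps2 turned direction. With no minimum number of interactions, 4 baits were higher at ZT0 and 6 at ZT12, 12 were higher at ZT18 than at ZT6, and most interactions fell at ZT0 in 11 and at ZT18 in 26. Without the chromosome 7 baits, 27.0% were present at all 4 timepoints, 34.9% were promoter-promoter pairs, 55.4% spanned over 150 kb, the shares of the lists were 0.297, 0.315, 0.345 and 0.321%, and RP pairs were 0. Without the baits off their RefSeq start, 1 bait was higher at ZT18 than at ZT6. Some of these shifts follow from the setting itself. Leaving out baits can only lower the shares of the lists and the number of RP pairs, and a minimum score of 10 raises the median highest score. Causes of the other shifts were not tested. Raw numbers, the gap between fragments, baits of the same timepoint, the nearest bait, removal of the paralogs and equal numbers of top-scoring pairs moved none of their values.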
